A study of Mus musculus with 4 samples.

Results

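The genes described here encode the nuclear subunits of respiratory complexes II to V, measured by RNA sequencing of mouse trigeminal ganglion. Members are the rows of the deposited table named Sdha to Sdhd, Uqcr, Cyc1, Cox4 to Cox8, Atp5 or Ndufa4, without pseudogene names, whose values averaged 1 TPM or more across all 4 libraries. TPM, a transcript abundance, divides a gene's reads by its length and scales every library to the same total. Of 56035 gene rows, 51 matched by name and 46 passed the threshold: 4 of complex II, 9 of complex III, 16 of complex IV and 17 of complex V. The pattern also took in 10 rows with pseudogene names, which were left out.

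The ganglion holds the cell bodies of the sensory neurons of the face, with their glia. The K823R group carried an allele of Trpv1, the heat- and capsaicin-gated channel of nociceptors, in which a lysine is replaced by arginine. The labels call it transgenic in the genotype field and a knock-in in the protocol. The WT group was littermates without that allele. All mice were male C57BL/6 animals aged 8 weeks. Each group had 2 libraries. The protocol speaks of 2 pairs of ganglia without saying how many animals stand behind each library, so p-values measure only the spread between these libraries, which may be technical. The series concerns TRPV1 SUMOylation and itch, and the comparison addresses whether ganglion transcripts differ with the allele. The labels name no cell type to which the allele is limited, and the table does not separate neurons from other cells. A TPM value per gene does not show a base change, so the genotype labels could not be checked against the data.

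Complex II oxidizes succinate and passes the electrons to ubiquinone. Complex III moves electrons from ubiquinol to cytochrome c, complex IV hands them on to oxygen, and complexes III and IV pump protons across the inner mitochondrial membrane. Complex V, the ATP synthase, lets the protons back in and makes ATP. The catalytic centres of complex IV and some subunits of complexes III and V are encoded in mitochondrial DNA, while the genes described here lie in the nucleus and send their proteins into the organelle. Sensory neurons depend on this chain to power ion pumps along long axons. Several complex IV subunits come in a widely expressed form and a form known mainly from heart and skeletal muscle, lung or testis.

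The promoters of 36 of the 46 members were found in the RefSeq table on build GRCm38.p6, as windows of 300 bases running from 250 before to 50 after each start. Motifs were searched on both strands as exact letters: GCGCA, any base and then GCGC for nuclear respiratory factor 1 (NRF1), CCGGAAG for ETS factors such as GABPA, and AAGATGGC for YY1. NRF1 and GABPA are known as activators of respiratory chain genes. The NRF1 letters stood in the windows of 10 members, and in 25.6% of the 39 member windows against 4.6% of all 32851 windows. ETS letters were found for 13 members, in 33.3% of member windows against 8.86% of all windows. YY1 letters were found for 3 members, in 7.69% of member windows against 2.75% of all windows. At least 1 of the motifs stood in the windows of 21 members, in 53.8% of member windows against 14.7% of all windows. None of the matches overlapped another motif in the windows printed here. These matches describe letters and do not show binding.
The windows below were chosen to show the motifs in complexes II, IV and V and to set a widely expressed isoform beside its muscle form. Capitals mark motif matches, and each runs 5′ to 3′ on the gene's strand.
Sdha promoter, chr13:74350191-74350490, minus strand: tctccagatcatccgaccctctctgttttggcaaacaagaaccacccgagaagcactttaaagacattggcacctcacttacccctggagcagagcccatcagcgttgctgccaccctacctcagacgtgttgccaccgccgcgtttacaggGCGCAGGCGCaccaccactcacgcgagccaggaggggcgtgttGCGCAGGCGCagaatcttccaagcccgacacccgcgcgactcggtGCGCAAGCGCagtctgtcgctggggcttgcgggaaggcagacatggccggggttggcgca
Cox6a1 promoter, chr5:115348909-115349208, minus strand: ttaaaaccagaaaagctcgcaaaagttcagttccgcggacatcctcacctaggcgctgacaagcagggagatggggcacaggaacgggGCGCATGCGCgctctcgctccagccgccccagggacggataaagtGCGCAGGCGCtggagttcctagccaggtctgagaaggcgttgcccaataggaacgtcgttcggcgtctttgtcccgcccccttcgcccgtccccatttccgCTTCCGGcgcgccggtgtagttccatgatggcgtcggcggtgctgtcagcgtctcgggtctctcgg
Cox8a promoter, chr19:7217567-7217866, minus strand: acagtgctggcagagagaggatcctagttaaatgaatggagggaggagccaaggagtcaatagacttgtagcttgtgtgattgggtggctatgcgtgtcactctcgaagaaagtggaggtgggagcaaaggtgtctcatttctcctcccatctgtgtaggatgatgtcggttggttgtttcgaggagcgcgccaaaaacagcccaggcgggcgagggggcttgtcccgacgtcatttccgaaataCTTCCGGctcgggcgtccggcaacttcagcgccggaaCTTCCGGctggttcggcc
Cox8b promoter, chr7:140900397-140900696, minus strand: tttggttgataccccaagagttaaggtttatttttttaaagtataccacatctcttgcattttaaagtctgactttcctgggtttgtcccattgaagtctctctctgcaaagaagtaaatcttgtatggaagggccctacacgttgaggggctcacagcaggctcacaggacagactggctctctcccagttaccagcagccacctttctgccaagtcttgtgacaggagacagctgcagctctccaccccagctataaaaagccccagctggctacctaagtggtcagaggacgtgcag
Atp5k promoter, chr5:108434350-108434649, minus strand: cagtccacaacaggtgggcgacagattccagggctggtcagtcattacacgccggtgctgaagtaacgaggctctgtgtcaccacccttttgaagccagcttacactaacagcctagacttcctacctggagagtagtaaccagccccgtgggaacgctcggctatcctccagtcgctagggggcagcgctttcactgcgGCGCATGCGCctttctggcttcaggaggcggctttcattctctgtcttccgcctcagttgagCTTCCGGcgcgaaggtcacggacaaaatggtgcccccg
The Sdha window held 3 NRF1 matches that begin 98, 55 and 10 bases before the start. Cox6a1 held 2 NRF1 matches, 162 and 117 bases before the start, and an ETS match 16 bases before it. Cox8a held ETS matches 5 bases before and 32 bases after its start. The window of its muscle form Cox8b held none of the 3 motifs. Lack of a match was not confined to such forms. The windows of Cox7a1 and Cox6b2 held none, and neither did those of the widely expressed Cox5a, Cox5b, Cox7a2, Cox7b, Cox7c and Ndufa4. Atp5k, a small membrane subunit of the ATP synthase, held an NRF1 match 50 bases before the start and an ETS match 12 bases after it.

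The libraries were alike in genes detected and in neuronal markers, and differed in markers of some other cell types. Between 21838 and 22119 genes were listed above 0, mitochondrially encoded genes held 6.09% to 6.88% of the TPM, and sensory neuron markers (12 of 12 tested) summed to 18184 and 17666 TPM in K823R, against 18889 and 16373 TPM in WT. Read totals are lost in TPM, so how many reads stand behind a value is unknown and no counting interval is given. WT replicate 1 stood apart in markers of central glia, with a summed level of 11.0 TPM over 8 markers while K823R had 235 and 287 TPM and WT replicate 2 had 199 TPM. All 6 tested central glia markers were higher in both K823R libraries than in both WT libraries. Myelinating Schwann cell markers also summed lowest there, at 11505 TPM against 14233 to 16958 TPM in the other libraries, as did the 8 macrophage markers at 53.7 TPM against 85.8 to 118 TPM. Satellite glia markers (8 genes) summed to 11166 and 12436 TPM in K823R and 11227 and 11163 TPM in WT. In K823R replicate 1 the 8 fibroblast and meningeal markers summed to 2847 TPM, against 350.45 to 1082 TPM elsewhere. Most of that sum was Ptgds, at 2374 TPM there, against 472 TPM in K823R replicate 2 and 109 and 577 TPM in WT. By log2 difference all 8 of these markers, all 8 macrophage markers and all 6 endothelial markers were higher in K823R. The groups nevertheless overlapped for 5 of the 8 fibroblast and meningeal, 4 of the 8 macrophage and 5 of the 6 endothelial markers. All 5 erythroid markers were lower, and the groups overlapped for all 5. The erythroid sums were 319 and 334 TPM in K823R, against 492 TPM in WT replicate 1 and 245 TPM in WT replicate 2. Over all genes tested 57.4% were higher. Pituitary markers (4 genes) summed to 22.9 and 19.5 TPM in K823R and 1.69 and 4.28 TPM in WT. The part of these differences in the results below was not tested beyond leaving out each library. In bulk tissue, fewer cells of a type and less RNA per cell cannot be told apart.

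Subunit transcripts of complexes II to V were among the most abundant of the ganglion. Together the 46 genes made up 3.03% and 3.06% of all TPM in K823R and 3.19% and 3.30% in WT. Of the members, 8 ranked among the 100 most abundant of the 15390 genes tested and 40 among the first 1000. The other 6 were Sdhc, the c-ring gene Atp5g2, and the complex IV isoforms Cox7a1, Cox6b2, Cox4i2 and Cox8b. Members fell into separate ranges of level, with 41 above 100 TPM and 5 below 30 TPM and none between 21.2 and 108.5 TPM.

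**Figure D1:**
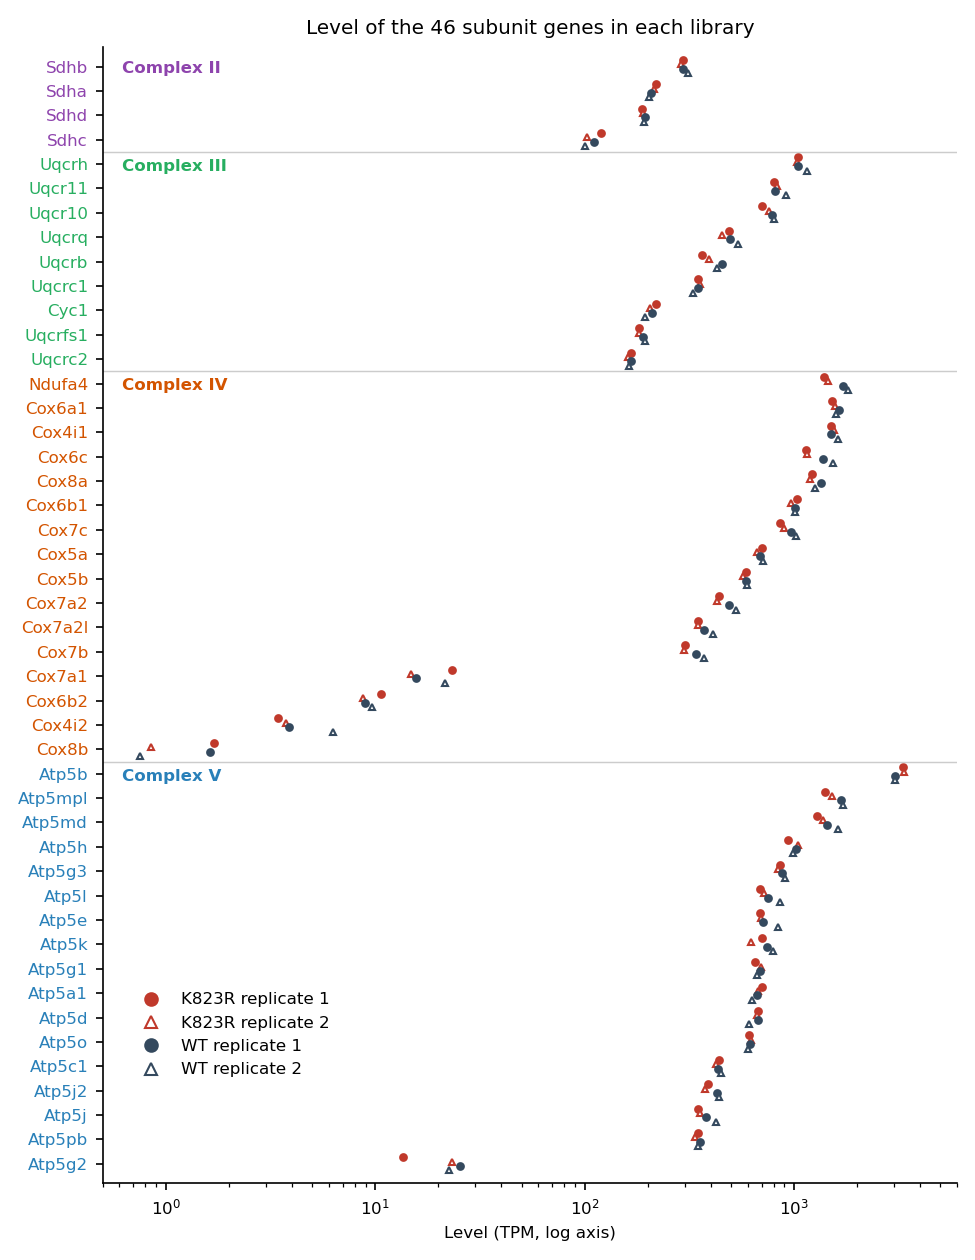
Level of each subunit gene in TPM on a log axis, in K823R (red) and WT (dark) libraries, circles for replicate 1 and triangles for replicate 2, grouped by complex and ordered by mean. Atp5b is the most abundant member, 41 genes lie above 100 TPM, and 5 genes, of which 4 belong to complex IV, lie far to the left.

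No member passed the test between genotypes, and the members were mostly slightly lower in K823R. The limma test on log2(TPM + 1), with Benjamini-Hochberg adjustment over all 15390 genes, called 0 of 46 members at an adjusted p under 0.05, and their adjusted p-values ran from 0.918 to 0.997. It called 1 gene in all, higher in K823R (0.0065% of those tested) and 0 lower (0%). Of the members 35 were lower and 11 higher, with a median log2 difference of -0.063, whereas over all genes tested 42.6% were lower, 57.4% higher and the median was 0.026. Unadjusted p was under 0.05 for 7 members, all lower, against 4.76% of all genes in either direction, 2.19% lower and 2.57% higher. Those 7 were Ndufa4, Cox6c, Cox7b, Cox7a2, Uqcrb, Atp5mpl and Atp5j2. In 23 members both K823R libraries lay below both WT libraries (14.6% of all genes) and in 3 both lay above (19.4% of all genes), so 26 members had no overlap, against 34% of all genes. An exact permutation test with 2 libraries against 2 cannot give a p under 0.333, so no such test is given for single genes.

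The standard error (SE) of a log2 difference had a median of 0.070 among the 41 members above 100 TPM, and their 95% intervals lay between -0.56 and 0.36. The intervals of 7 members lay below 0 and those of 39 held 0. The number of members with an unadjusted p under 0.05 depended on single libraries. Leaving out K823R replicate 1 gave 0 members, when 1.51% of all genes were under that p and lower, and leaving out K823R replicate 2 gave 1 (1.41% of all genes). Leaving out WT replicate 1 gave 12 (2.92% of all genes) and leaving out WT replicate 2 gave 4 (2.86% of all genes), and all of these members were lower. The members' median stayed below 0 in each case. It was -0.092 without WT replicate 1, the library low in central glia markers, when the median of all genes was 0.050. Without WT replicate 2 the members' median was -0.048, closer to the median of all genes, which was then -0.0022.

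**Figure D2:**
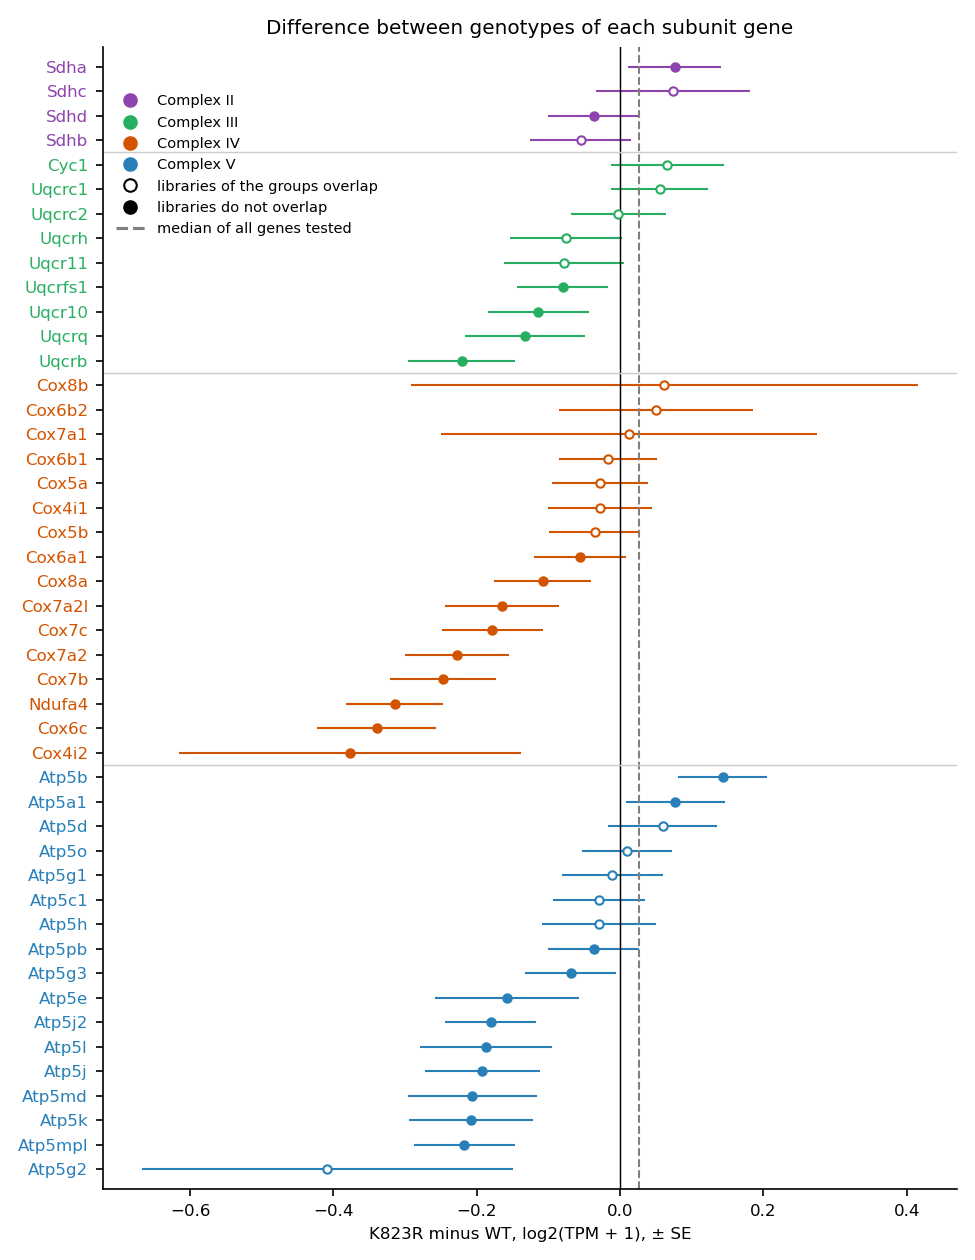
Log2 difference, K823R minus WT in log2(TPM + 1), of each subunit gene with its SE, coloured by complex, with filled points where the 2 libraries of each genotype do not overlap and a dashed line at the median of all genes tested (0.026). Most points lie left of 0, while Atp5b, Atp5a1 and Sdha lie to the right with filled points.

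Complex II was level between the genotypes. Its 4 genes summed to 822.6 and 795 TPM in K823R and 807 and 809 TPM in WT, and their median log2 difference was 0.019. Sdha (ENSMUSG00000021577, chromosome 13, 74322254 to 74350280), the flavoprotein that oxidizes succinate, had 219.9 and 213.8 TPM in K823R, against 208.0 and 203.4 TPM in WT. The K823R libraries were the higher pair, without overlap (log2 difference 0.076, SE 0.065, limma adjusted p = 0.919). The iron-sulfur subunit Sdhb (chromosome 4) had 295.9 and 287.8 TPM in K823R, against 293.5 and 313.3 TPM in WT. For the membrane anchor Sdhc (chromosome 1), values were 119.9 and 103.0 TPM in K823R and 110.9 and 100.4 TPM in WT. Its partner Sdhd (chromosome 9) had 187.0 and 190.4 TPM in K823R, against 194.9 and 192.2 TPM in WT. Of these, the Sdhb and Sdhc libraries overlapped between the groups, and both Sdhd libraries of K823R lay slightly below those of WT.

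In complex III all 5 accessory genes were lower in K823R, and of the 4 core genes 2 were lower and 2 higher. The difference between the roles was not tested. The median deposited length was 445 bases for the accessory genes and 1586.5 for the core genes, so role and length cannot be told apart. With the length trend removed (described below) the accessory genes had a median log2 difference of -0.063, against -0.11 as reported. The 4 core genes summed to 915 and 905 TPM in K823R and 918 and 879 TPM in WT. The 5 accessory genes summed to 3408 and 3470.2 TPM in K823R and 3585 and 3838 TPM in WT. The direction of the 5 accessory genes held under every scaling tried, and Uqcr11 turned higher without WT replicate 2. Cyc1 (ENSMUSG00000022551, chromosome 15, 76343523 to 76346260), the cytochrome c1 that hands electrons to cytochrome c, had 218.6 and 205.5 TPM in K823R, against 210.9 and 194.3 TPM in WT. The Rieske iron-sulfur protein Uqcrfs1 (chromosome 13) had 181.7 and 181.8 TPM in K823R, against 191.1 and 193.3 TPM in WT. The structural core proteins Uqcrc1 (chromosome 9) and Uqcrc2 (chromosome 7) differed by 0.055 and -0.0024 on the log2 scale. Libraries of the groups overlapped for Cyc1, Uqcrc1 and Uqcrc2 and not for Uqcrfs1.

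Uqcrb was the complex III gene with the smallest p. It encodes a small subunit of complex III close to the ubiquinone site (ENSMUSG00000021520, chromosome 13, 66900617 to 66905378). It had 363 and 391 TPM in K823R, against 452 and 427 TPM in WT, with no overlap (log2 difference -0.22, SE 0.075, limma adjusted p = 0.918). Uqcr10 (chromosome 11) was next, at 705 and 760.1 TPM in K823R, against 786 and 799 TPM in WT. The hinge protein gene Uqcrh (chromosome 4) was the most abundant of the complex, at 1046 and 1034 TPM in K823R and 1040.3 and 1155 TPM in WT, with overlapping libraries. Uqcrq and Uqcr11 had log2 differences of -0.13 and -0.078.

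Complex IV was lower by the widest margin of the 4 complexes in summed level. Its 16 genes summed to 11092 and 11119 TPM in K823R and 12044 and 12504 TPM in WT, 9.52% lower in K823R by the means. All 11 widely expressed subunits were lower in K823R (median log2 difference -0.11), although Cox4i1, Cox5b, Cox6a1 and Cox6b1 were higher after quantile normalization. Cox5a and Cox6b1 were also higher without K823R replicate 2 and with the length trend removed (described below), and Cox4i1 without WT replicate 2. Ndufa4, once counted with complex I and now known as a complex IV subunit, had the smallest p of all members (ENSMUSG00000029632, chromosome 6, 11900292 to 11907497). It had 1388 and 1446 TPM in K823R, against 1718 and 1807 TPM in WT, without overlap. The log2 difference was -0.31 with SE 0.068 and a 95% interval of -0.49 to -0.14 (limma, unadjusted p = 0.00669, adjusted p = 0.918).

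Cox6c had the lowest log2 difference among members above 100 TPM. This small subunit of complex IV (ENSMUSG00000014313, chromosome 15, 35925886 to 35938246) had 1143 and 1153 TPM in K823R, against 1369 and 1542 TPM in WT. The groups did not overlap, and the log2 difference was -0.34 with SE 0.083 (limma adjusted p = 0.918). Cox7b, the X-linked member, had 301 and 298 TPM in K823R, against 341 and 371 TPM in WT (log2 difference -0.25). Cox7a2 (chromosome 9) had 438 and 429 TPM in K823R, against 487 and 529 TPM in WT (log2 difference -0.23). In each of these genes the 2 K823R libraries lay close together and below both WT libraries. The larger subunit Cox4i1 (chromosome 8) showed no such gap, with 1504 and 1550.4 TPM in K823R and 1498 and 1618 TPM in WT. Cox5a, Cox5b, Cox6a1 and Cox6b1 had log2 differences of -0.028, -0.036, -0.056 and -0.017. Among these only Cox6a1 had no overlap, at 1523 and 1573 TPM in K823R, against 1632 and 1587 TPM in WT. Cox8a had 1222 and 1196 TPM in K823R, against 1344 and 1263 TPM in WT, also without overlap. Cox7a2l, known as a factor that joins complexes III and IV into supercomplexes, had 349 and 347 TPM in K823R, against 369.96 and 412 TPM in WT (log2 difference -0.16).

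The tissue-restricted isoforms were scarce, and none stood for more than 2.88% of its family's TPM. That share belonged to Cox7a1 in K823R replicate 1, with the family counted as Cox7a1, Cox7a2 and Cox7a2l. Its share beside Cox7a2 alone was larger. Cox4i2, known mainly from lung and vascular cells, had 3.44 and 3.74 TPM in K823R, against 3.86 and 6.30 TPM in WT. Both K823R libraries were just below WT replicate 1 and well below WT replicate 2, which set most of the log2 difference of -0.38 (SE 0.24, limma adjusted p = 0.918). The difference was -0.083 without WT replicate 2. The 6 mural cell markers summed to 88.6 and 81.8 TPM in K823R and 76.1 and 80.2 TPM in WT, with 5 higher in K823R and 1 lower. The lower marker was the most abundant, Rgs5, at 53.3 and 53.0 TPM in K823R and 54.5 and 56.2 TPM in WT. The part of mural cells in the level of Cox4i2 was not tested. Cox6b2, known from testis, had 10.7 and 8.76 TPM in K823R, against 8.96 and 9.67 TPM in WT. Of 5 testis markers 4 were listed at 0 in every library, and Prm1 was at most 0.72 TPM.

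The muscle isoforms were present at low level together with traces of muscle genes. Cox7a1, the heart and muscle partner of Cox7a2, had 23.3 and 14.8 TPM in K823R, against 15.7 and 21.6 TPM in WT. Cox8b had 1.70 and 0.85 TPM in K823R, against 1.62 and 0.75 TPM in WT. The groups overlapped for both genes, and which library was high was not shared by the replicates of either genotype. The 8 skeletal muscle markers summed to 8.39 and 4.74 TPM in K823R and 4.94 and 4.49 TPM in WT, and the 5 cardiac markers to at most 3.12 TPM in any library. Of 5 brown fat markers, Cidea had 24.7 and 20.5 TPM in K823R and 24.5 and 22.0 TPM in WT, and the other 4, Ucp1 among them, were at most 0.27 TPM in any library. The part of muscle cells in the levels of Cox7a1 and Cox8b was not tested. Cox8b was the member just inside the threshold, at a mean of 1.23 TPM. Just outside were the muscle isoform Cox6a2, at 0.77 and 0.91 TPM in K823R and 0.18 and 1.18 TPM in WT, and Cox7b2, at 0.88 and 0 TPM in K823R and 0.55 and 0.78 TPM in WT. The rows Cox6c2, Cox8c and a second Atp5o entry (ENSMUSG00000116933) were listed at 0 in every library.

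**Figure D3:**
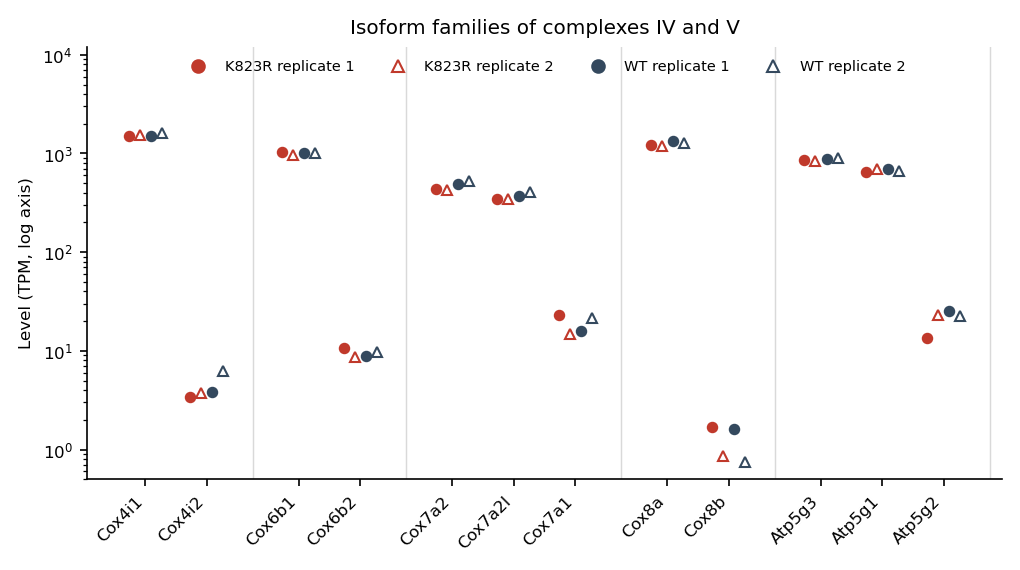
Level in TPM on a log axis of the isoform families of complexes IV and V in K823R (red, left) and WT (dark, right) libraries, with circles for replicate 1 and triangles for replicate 2. The tissue-restricted forms Cox4i2, Cox6b2, Cox7a1 and Cox8b lie at 23.3 TPM or less. The c-ring gene Atp5g2, drawn without its near-identical copies, lies at 25.5 TPM or less, and the other genes lie at 347 TPM or more in every library.

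In complex V the summed level of the catalytic head was higher in K823R and that of the membrane part lower, and the difference between them was not tested. The median deposited length was 1166 bases for the head genes and 544 for the accessory membrane genes, so role and length cannot be told apart. With the length trend removed (described below) their median log2 differences were 0.045 and -0.15, against 0.059 and -0.21 as reported. The 5 genes of F1, the head that makes ATP, summed to 5829 and 5823 TPM in K823R, against 5527 and 5554 TPM in WT. The 5 accessory genes of the membrane part summed to 4473 and 4621 TPM in K823R, against 5050.2 and 5437 TPM in WT, and all 5 were lower under every scaling and with any library left out. The groups overlapped in neither sum. The F1 sum was carried by Atp5b, and the other 4 genes summed to 2498 and 2457 TPM in K823R, against 2485 and 2531 TPM in WT, with overlap. Of the 5 F1 genes 3 were higher and 2 lower (median log2 difference 0.059), and without WT replicate 2 there were 2 higher and 3 lower (median -0.0051). Atp5b, the catalytic beta subunit and the most abundant member (ENSMUSG00000025393, chromosome 10, 128083273 to 128090391), had 3331 and 3366 TPM in K823R, against 3043 and 3022 TPM in WT. The estimate of 0.14 on the log2 scale (SE 0.062) had a 95% interval of -0.020 to 0.31 (limma adjusted p = 0.918). It ranged from 0.14 to 0.15 with each library left out, but depended more on the scaling. With median-of-ratios scaling it was 0.12, and with quantile normalization 0.078. The alpha subunit Atp5a1 had 699.7 and 669.6 TPM in K823R, against 667.5 and 630.8 TPM in WT (log2 difference 0.077). Alpha and beta occur in equal number in F1, and the beta transcript was 4.78 times as abundant over the 4 libraries. The gamma subunit Atp5c1, the rotating shaft, had 437 and 425 TPM in K823R, against 432 and 447 TPM in WT. Delta (Atp5d) had a log2 difference of 0.059, which turned negative without WT replicate 2. Epsilon (Atp5e) was lower, with 689 and 697 TPM in K823R, against 710.5 and 842 TPM in WT.

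The membrane subunits f, e, g, DAPIT and the small proteolipid, which join ATP synthases into rows in the cristae, were lower by similar amounts. Atp5mpl, the proteolipid (ENSMUSG00000021290, chromosome 12, 111961375 to 111966977), had 1409.9 and 1519 TPM in K823R, against 1683 and 1721 TPM in WT (log2 difference -0.22, SE 0.071, limma adjusted p = 0.918). Subunit f, Atp5j2 (chromosome 5), had 389 and 377 TPM in K823R, against 431 and 438 TPM in WT. For Atp5md, which encodes DAPIT, values were 1282 and 1377 TPM in K823R and 1443 and 1629 TPM in WT. Atp5k, subunit e, whose promoter is printed above, had 705.9 and 625.5 TPM in K823R, against 747 and 789 TPM in WT. Log2 differences of the 5 genes lay between -0.22 and -0.18. None of them overlapped between the genotypes.

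The peripheral stalk and the c ring, the rotor driven by protons, differed less in summed level than the accessory membrane genes. By the means the sums changed by -3.16% and -3.28% in K823R, against -13.3% for the accessory membrane genes. Single genes did not all differ less, as Atp5j lay within the range of those genes' log2 differences and Atp5g2 beyond it. Among stalk genes, Atp5j had 347 and 356 TPM in K823R, against 380.2 and 424 TPM in WT (log2 difference -0.19). Atp5pb, Atp5h and Atp5o had differences of -0.037, -0.030 and 0.0096. The c subunit is encoded by 3 genes whose mature proteins are known to be the same. Counting only the rows of these 3 genes, without copies, Atp5g3 gave most of the transcript, at 852 and 841 TPM in K823R, against 872 and 905 TPM in WT. Atp5g1 had 650.2 and 698 TPM in K823R, against 691 and 667 TPM in WT. Atp5g2 had 13.6 and 23.2 TPM in K823R, against 25.5 and 22.5 TPM in WT (log2 difference -0.41, SE 0.26, limma adjusted p = 0.918), with K823R replicate 1 as the low value and overlapping groups. Without K823R replicate 1 the difference of Atp5g2 was -0.044.

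For 3 of these genes a near-identical copy elsewhere in the genome took a large share of the TPM. Of 46 members, 16 had a GENCODE transcript of another gene with at least 95% identity over at least 150 bases and 50% of the shorter transcript, and 30 had none. Copies of 3 members summed to over 5% of the member's own TPM. The copy Gm10175 of Atp5g2 had 276 and 254 TPM in K823R and 255 and 265 TPM in WT, above Atp5g2 itself. With its copies added, Atp5g2 had 289.6 and 276.9 TPM in K823R, against 280.1 and 287.7 TPM in WT. Gm12338, a processed pseudogene that matches Cox7c at 100% identity over 192 bases, had 1297 and 1093 TPM in K823R and 1515 and 1130.4 TPM in WT. Cox7c alone had 854 and 899 TPM in K823R, against 964 and 1021 TPM in WT, without overlap. With copies added it had 2155 and 1994 TPM in K823R, against 2484 and 2154 TPM in WT, and the groups overlapped. Atp5l, subunit g, had 686 and 722 TPM in K823R, against 747 and 859 TPM in WT. With its copies it had 1372 and 1206 TPM in K823R, against 1473 and 1435 TPM in WT, still without overlap. How reads were divided between gene and copy is not given in the sources used here, so the levels of these 3 genes are uncertain. Another gene with a mean of at least 1 TPM overlapped 8 members. Among them were Cox6c (Vps13b, opposite strand), Atp5j (Gabpa, opposite strand) and Cox4i1 (Emc8, opposite strand, and Gm20388, same strand). Without a stated strand setting, reads from overlaps on opposite strands cannot be told apart. For Gm20388, on the strand of Cox4i1, a strand setting would not separate them either.

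**Figure D4:**
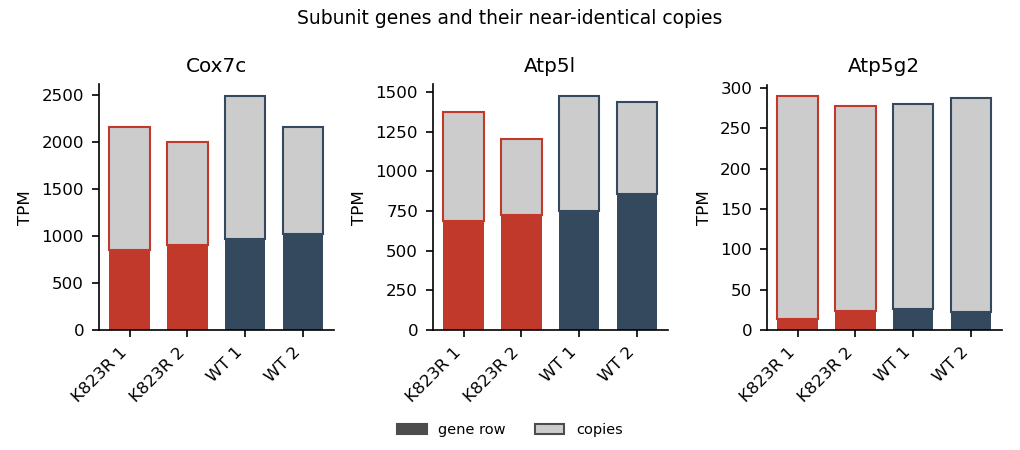
TPM of Cox7c, Atp5l and Atp5g2 (solid) and of their near-identical copies (grey, stacked) in each K823R (red) and WT (dark) library. The copies hold more TPM than Cox7c and Atp5g2 themselves, and the total of Atp5g2 with its copies lies between 276.9 and 289.6 TPM in every library.

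Short and long subunit genes differed in direction, and so did short and long genes of the whole table. The length ranges used here, like the grouping of subunits by role, were chosen after the values were seen. Of the 23 members with a deposited length under 700 bases, 20 were lower in K823R (median log2 difference -0.13), against 54.7% of the 1106 genes tested in that range (median -0.044). From 700 to under 1200 bases, 10 of 12 members were lower (median -0.062), against 53.1% of 1503 genes (median -0.014). At 1200 bases or more, 5 of 11 members were lower (median 0.055), against 40.4% of 12781 genes (median 0.032). Of the 11 long members, Sdha, Sdhc, Atp5a1, Atp5b, Cyc1 and Uqcrc1 were higher, and Sdhd, Uqcrfs1, Uqcrc2, Atp5g1 and Atp5pb were lower. With each library's trend over length removed, an alternative chosen after seeing the data, the members' median was -0.039 with 32 lower and 14 higher. The median of all genes was then 0.0060, and 6 members had an unadjusted p under 0.05, all lower, against 2.95% of all genes lower.

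**Figure D5:**
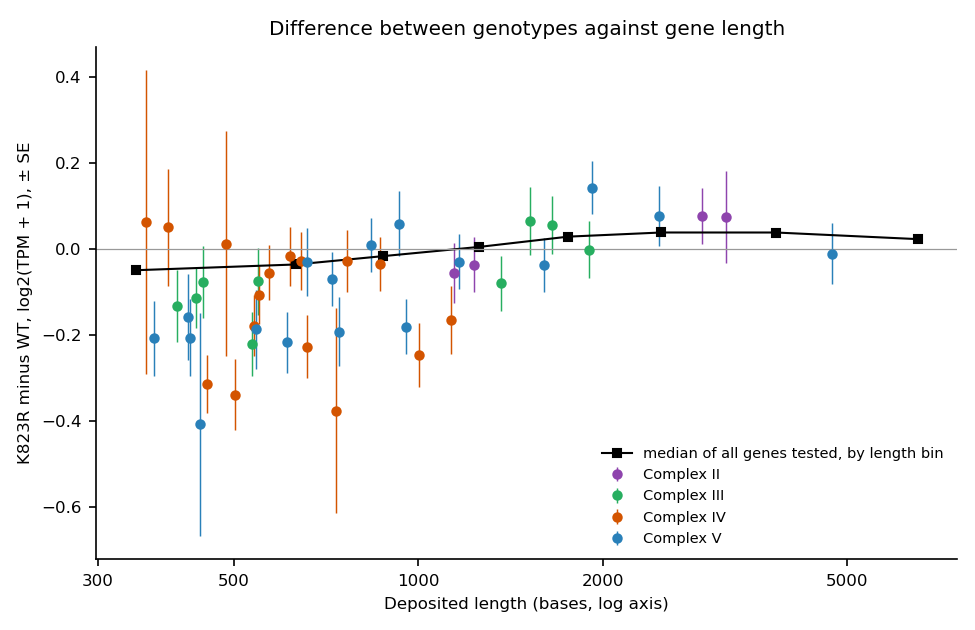
Log2 difference (K823R minus WT, log2(TPM + 1), ± SE) of each subunit gene against its deposited length in bases on a log axis, coloured by complex, with squares for the median of all genes tested in each length bin. The squares run from -0.050 in the shortest bin to 0.038 between 2001 and 5000 bases, and most members under 700 bases lie below them.

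Genes that work with these complexes showed the same absence of calls. Of 39 tested assembly factors of complexes II to V, 24 were lower and 15 higher (median log2 difference -0.052), and 0 passed limma. Cox16, a complex IV assembly factor, had 95.5 and 98.1 TPM in K823R, against 128 and 119.7 TPM in WT (log2 difference -0.35, limma adjusted p = 0.918). Cox18, which inserts a mitochondrially made subunit, was on the higher side, at 21.1 and 22.6 TPM in K823R, against 19.2 and 16.7 TPM in WT. Among 4 complex II factors Sdhaf4 had 62.4 and 59.3 TPM in K823R, against 68.1 and 74.9 TPM in WT. Sdhaf2 differed by 0.0052. Of complex III factors, Bcs1l differed by 0.15 and Uqcc2 by -0.18, and of complex V factors Atpaf2 by 0.29 and Tmem70 by -0.22. Cycs, the cytochrome c that carries electrons between complexes III and IV, had 82.0 and 84.4 TPM in K823R, against 94.1 and 97.9 TPM in WT (log2 difference -0.20). Atpif1, the inhibitor of the ATP synthase, had 1185 and 1146 TPM in K823R, against 1208 and 1320.2 TPM in WT.

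The nuclear subunits of complex I had a like median, and the enzymes of the tricarboxylic acid (TCA) cycle did not share it. The median deposited length was 812 bases for the complex I genes and 2544 for the TCA cycle genes. Pathway and length therefore cannot be told apart, and the part of length was not tested. At 1200 bases or more the median log2 difference was 0.055 for members and 0.032 for all genes tested. The complex I genes were taken by names starting with Nduf, without assembly factors and Ndufa4. They therefore include Ndufa4l2 (log2 difference -0.067), whose name places it beside the complex IV subunit Ndufa4. Of the 38 tested, 29 were lower and 9 higher (median -0.070). The smallest p values there belonged to Ndufs4, at 97.9 and 96.7 TPM in K823R, against 129 and 127 TPM in WT, and on the higher side to Ndufa3, which differed by 0.094. Of 13 TCA cycle genes 9 were higher and 4 lower (median 0.068), with Suclg2 higher by 0.27 and Sucla2 lower, at 227 and 226 TPM in K823R, against 247 and 247 TPM in WT. Of 11 regulators of mitochondrial gene expression 3 were higher and 8 lower (median -0.043). Tfam, which packages and transcribes mitochondrial DNA, had 26.4 and 20.2 TPM in K823R, against 29.5 and 29.3 TPM in WT, and Nrf1 differed by 0.16. None of these genes passed limma over all genes, with adjusted p-values of 0.911 and above.

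The mitochondrially encoded partners of complexes III to V had uneven values. The complex IV subunit mt-Co1 had 11906 and 11511 TPM in K823R, against 12379 and 12822 TPM in WT (log2 difference -0.11). The complex III subunit mt-Cytb had 5316 and 5271 TPM in K823R, against 5644 and 5581 TPM in WT. In both, the K823R libraries lay below the WT libraries. The subunits mt-Co2 and mt-Co3 were far lower and varied between replicates, with mt-Co3 at 963 and 370.3 TPM in K823R and 220.4 and 281 TPM in WT (limma adjusted p = 0.918). The ATP synthase gene mt-Atp6 was listed at 0 in every library although cells that respire use it, while the overlapping gene mt-Atp8 had 23471 and 25713 TPM in K823R, against 23419 and 29394 TPM in WT. Values of these overlapping and adjoining genes are therefore uncertain.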

How the data were processed

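Messenger RNA of mouse trigeminal ganglia was copied with random primers and sequenced as paired reads of 150 bases, per the labels' protocols. Groups (2 K823R and 2 WT libraries) come from the sample titles. Per the submitters' processing notes the build was GRCm38.p6 and the tools were HISAT2, RSEM, edgeR and fastp 0.19.5, without roles. The annotation, filters and strand are not given in the sources here. The deposited values are TPM, which the authors scaled to one total per library. The gene length column is deposited by the authors too. The authors' 2 further columns, taken as group means from their names, entered no test.

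The 15390 genes averaging 1 TPM or more were tested with limma 3.58.1 in R 4.3.3 on log2(TPM + 1), with a variance trend, two-sided, Benjamini-Hochberg adjusted over all genes, at a threshold of 0.05. The fit had 2 residual and 2.67 prior degrees of freedom. It was tried on simulated data with changes larger than that of any member and with spreads given to genes at random. That trial does not show how often changes as small as the members' would be called. Differences are K823R minus WT and understate the change of low genes. Members and lists were chosen with earlier results of these data known, and lists are described by counts and medians. Members are named by role (complex II, catalytic and core subunits, isoform families), by smallest p in each direction, and by highest and lowest level per complex, with 1 gene per direction from other lists. Some further genes are named and were chosen after their values were seen. Alternatives were another pseudocount, other filters and scalings, no variance trend, a replicate block, each library left out and, chosen after seeing the data, removal of the trend over gene length. Copies were searched with BLAST 2.17.0 in GENCODE M21 transcripts (GRCm38), whose coordinates are given. Tables and plots used Python 3.11.15, pandas 2.3.3 and matplotlib 3.10.9.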

Additional observations from a re-analysis of the deposited data

How the results depend on the processing

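Under the 14 alternatives no member passed an adjusted p of 0.05 in limma (lowest 0.656, without WT replicate 1), and the members' median stayed below 0, from -0.092 to -0.048 with a replicate left out. The count of all genes called was 1, and it was 0 without a filter on low values (1210 genes at an unadjusted p under 0.05), without a variance trend (739) and with a replicate block (916), 2 at a mean of at least 10 TPM (436), and 0 to 0 without a replicate (574 to 1111). The replicate numbers are not known to pair the libraries (correlation of same-numbered deviations 0.050 over all genes), and with the block 11 members had an unadjusted p under 0.05. That number was 2 without a variance trend.

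Complex medians moved as follows. With median-of-ratios scaling they were -0.0041 for complex II, against 0.019 as reported, and -0.092 for complex V. With quantile normalization they were -0.049 for complex III and -0.043 for complex V. The median of all members was then -0.046, against -0.0028 over all genes tested. Of the members 31 were then lower and 15 higher, and of all genes 50.8% were lower. With the length trend removed complexes II to V were at 0.0046, -0.034, -0.041 and -0.055, against 0.019, -0.078, -0.082 and -0.069 as reported. Without a replicate complex II ran from -0.029 to 0.033, complex III from -0.13 to -0.024, complex IV from -0.16 to -0.086 and complex V from -0.10 to -0.048. The causes were not tested.

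Of 431 values of the 31 named members under alternatives, 412 kept their sign and 19 did not, and 0 passed the threshold. Cox7a1 was at -0.0040 with upper-quartile scaling, -0.0099 with median-of-ratios scaling and -0.028 with quantile normalization, which also gave 0.033 for Cox4i1, 0.040 for Cox6a1 and 0.0034 for Cox6b1. Cox6b1 was at 0.020 with the length trend removed. Without a replicate the ranges that crossed 0 were -0.30 to 0.32 for Cox7a1, -0.23 to 0.35 for Cox8b, -0.079 to 0.18 for Cox6b2, -0.035 to 0.18 for Sdhc, -0.062 to 0.040 for Atp5g1, -0.084 to 0.028 for Cox4i1, -0.068 to 0.034 for Cox6b1 and -0.024 to 0.019 for Uqcrc2. The TPM values give no depth, so the limits of detection for the scarce isoforms are unknown.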
